A study of Homo sapiens with 9 samples.

Results

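The Hippo pathway and the genes that its co-activators YAP and TAZ switch on were measured in LN229 cells, a long-established line from a human glioblastoma, before and after formate was added to the medium. The set held 38 genes of the 23727 in the count table, chosen by symbol from a fixed list and not by their values: 18 pathway components (2 co-activators, 4 TEAD factors, 1 TEAD cofactor, 4 kinases, 4 scaffold and adaptor proteins and 3 angiomotins) and 20 targets. All 38 were found, and 37 had enough counts for the test (18 of 18 components and 19 of 20 targets), with ANKRD1 left out by the filter on low counts. RNA sequencing was done on 9 libraries in 3 groups of 3: untreated cells taken at 0 h, cells given 500 µM sodium formate for 8 h, and cells given the same dose for 24 h. All groups were the same cell line in medium with serum, glucose and glutamine, and the labels name no genetic change. Formate is the salt of formic acid and carries single carbon units into folate metabolism. Untreated cells were taken only at 0 h, so the effect of formate and that of time in culture cannot be told apart. The labels do not say whether the replicates came from separate cultures, so p-values measure the spread between these libraries, which may be technical.

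In the Hippo pathway, the MST kinases (genes STK3 and STK4) with the scaffold SAV1 activate the LATS kinases and their MOB1 partners, which phosphorylate YAP (YAP1) and TAZ (WWTR1) and keep them out of the nucleus. NF2 (merlin) and the angiomotins act upstream, and the angiomotins bind the co-activators at junctions and on actin. Unphosphorylated YAP and TAZ enter the nucleus and, bound to TEAD1 to TEAD4, raise genes for matrix proteins, surface receptors and regulators of the cytoskeleton. VGLL4 competes for the TEAD surface. The pathway is controlled largely by phosphorylation and location, which messenger RNA levels do not show.

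TEAD proteins bind the letters GGAATG, and the sequences before the start sites of 5 targets are shown so that these letters can be set beside the values that follow. RefSeq promoter windows on GRCh38.p14 (250 bases before to 50 bases after the start) were found for 15 of the 18 components and 15 of the 20 targets. They were searched on both strands for these letters, and 14.0% of the 27305 promoters in the table held it at least once. Among components 2 of 15 held it (YAP1 and LATS2), and among targets 5 of 15 did (CCN2, FOXF2, ANKRD1, PTPN14 and NUAK2). The 3 windows with more than 1 match were those of CCN2, ANKRD1 and NUAK2, while 1.37% of all promoters held it more than once. The 250 bases before the start are printed 5′ to 3′ on the strand of the gene, with GGAATG or its reverse complement in capitals, for these targets and then for AJUBA and NT5E, which fell at 24 h in both fits and held no match.
CCN2, chr6:131951373-131951622 minus strand: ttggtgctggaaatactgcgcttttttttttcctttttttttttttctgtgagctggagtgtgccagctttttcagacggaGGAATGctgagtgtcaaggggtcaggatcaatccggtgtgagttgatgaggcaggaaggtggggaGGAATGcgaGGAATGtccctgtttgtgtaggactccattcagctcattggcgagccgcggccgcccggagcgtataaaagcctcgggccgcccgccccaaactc
ANKRD1, chr10:90921088-90921337 minus strand: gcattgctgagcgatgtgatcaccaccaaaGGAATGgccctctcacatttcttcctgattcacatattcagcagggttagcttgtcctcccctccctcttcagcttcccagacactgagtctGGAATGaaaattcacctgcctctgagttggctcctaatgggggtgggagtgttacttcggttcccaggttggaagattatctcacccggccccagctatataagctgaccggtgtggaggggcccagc
NUAK2, chr1:205321746-205321995 minus strand: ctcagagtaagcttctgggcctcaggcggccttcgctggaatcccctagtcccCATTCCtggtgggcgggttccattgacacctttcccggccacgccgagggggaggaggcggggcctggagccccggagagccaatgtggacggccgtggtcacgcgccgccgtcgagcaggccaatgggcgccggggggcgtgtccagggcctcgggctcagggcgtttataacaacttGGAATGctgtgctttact
AJUBA, chr14:22982552-22982801 minus strand: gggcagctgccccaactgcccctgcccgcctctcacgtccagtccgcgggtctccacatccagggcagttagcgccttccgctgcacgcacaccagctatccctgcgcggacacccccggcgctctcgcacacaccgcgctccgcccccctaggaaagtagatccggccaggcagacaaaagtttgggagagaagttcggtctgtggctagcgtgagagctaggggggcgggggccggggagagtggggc
NT5E, chr6:85449833-85450082 plus strand: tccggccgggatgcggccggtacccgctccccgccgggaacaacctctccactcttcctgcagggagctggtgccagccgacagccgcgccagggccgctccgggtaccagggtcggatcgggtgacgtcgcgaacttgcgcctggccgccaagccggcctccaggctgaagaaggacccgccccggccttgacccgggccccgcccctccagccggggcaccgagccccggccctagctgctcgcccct
In CCN2 the matches began 169, 104 and 95 bases before the start, and in ANKRD1 they began 220 and 128 bases before it. In NUAK2 a match on the reverse strand began 197 bases and one on the gene's strand 18 bases before the start. Windows of TEAD1, TEAD4, STK3, ARHGEF17, ASAP1, CCN1, CRIM1 and DOCK5 were not used here. A match describes the letters only, and the absence of one says only that these letters are not in this window.

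The libraries held 22222298 to 25848242 counts. The first principal component of the 500 most variable genes (70.7% of their variance) ran from -23.5 and -21.6 in replicate 1 of the untreated and of the 8 h group, through -3.41 to -0.80 in the other libraries of those groups, to 9.56, 20.02 and 25.03 in the 24 h libraries. Replicate 1 therefore stood apart in both earlier groups, and for 24 h against 0 h the calls without the 3 libraries numbered 1 are given beside the others. That exclusion was chosen from these same data and leaves only the libraries numbered 2 and 3 in each group, so its calls are not independent support. Same-numbered libraries of the untreated and treated groups deviated together, so each comparison with 0 h was also fitted with the replicate number as a block (called the block fit below). Of the 10 neural and glial markers listed, 9 passed the filter on low counts. Those given here are VIM (mean 4330 CPM, the counts scaled to a common library size), NES (952 CPM), CD44 (919 CPM) and GFAP (0.249 CPM). The others are given only within the sum of the list, so these values do not by themselves name the cell type. Over the libraries, the summed markers of other cell types reached 0.193 to 0.525 CPM for blood, 0.385 to 1.78 CPM for endothelium, 2.74 to 6.55 CPM for epithelium and 38.9 to 59.3 CPM for neurons. The summed neural and glial markers stood at 6330 to 8680 CPM at 0 h and 5499 to 6299 CPM at 24 h, and the part of such markers in the results was not tested.

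Levels between genes were compared as CPM per kilobase of exon. The length covers all annotated exons of a gene and can exceed that of the transcripts present, so ratios between genes are approximate. Of the co-activators, WWTR1 was the more abundant: at 0 h it stood at 40.8 ± 11.4 CPM per kilobase and YAP1 at 8.82 ± 1.003 (mean ± SD, n = 3 libraries). The ratio of WWTR1 to YAP1 was 3.48 to 7.59 over the 9 libraries. Among the TEAD factors at 0 h, TEAD1 (19.7 ± 5.84 CPM per kilobase) and TEAD4 (14.2 ± 3.53) did not differ beyond their spread, since untreated replicate 1 held less TEAD1 than TEAD4 (ratio 0.715). TEAD3 (3.28 ± 0.293) and TEAD2 (2.202 ± 0.347 CPM per kilobase) were lower. STK4 exceeded STK3 in all 9 libraries, by 2.91 to 3.91 times per kilobase. LATS1 and LATS2 were close, with ratios per kilobase between 0.907 and 1.12. MOB1A exceeded MOB1B by 3.69 to 6.69 times, though reads of the MOB1A pseudogenes MOB1AP1 and MOB1AP2 may share its counts. The angiomotin order at 0 h was AMOTL1 (26.99 ± 0.134 CPM per kilobase), AMOTL2 (13.5 ± 1.41) and AMOT (5.63 ± 1.47). Among the targets at 0 h the highest were AXL (176 ± 23.9 CPM per kilobase) and NT5E (107 ± 16.6), and the plot of levels per exon length shows the whole order.

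**Figure D1:**
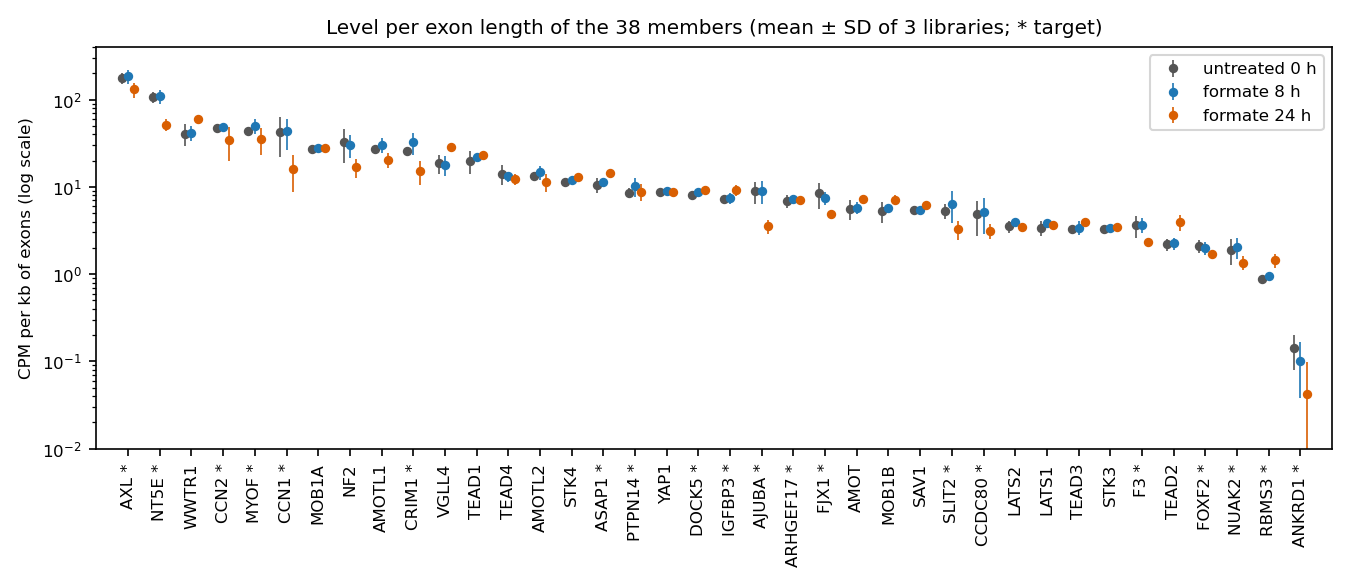
Level of the 38 genes in CPM per kilobase of exon (logarithmic axis) in untreated cells (grey) and after formate for 8 h (blue) and 24 h (orange); points are means and bars SD of 3 libraries, and an asterisk marks a target. AXL and NT5E lead the order at 0 h, WWTR1 stands above YAP1 in every group, and ANKRD1 lies far below the rest.

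After 8 h of formate no pathway component and no target had changed by the test. Of all 15273 genes tested, 0 passed (0% called) at an adjusted p under 0.05, both with edgeR's quasi-likelihood test and with its block fit, and DESeq2 called 0. Before adjustment, 79 genes had a p under 0.05 in the first fit, 155 in the second and 37 with DESeq2, and no member did in any of them. The fitted log2 changes of the 37 members ran from -0.16 to 0.33, and 31 of them were above 0, with a median of 0.05 for the components and 0.06 for the targets against -0.02 for all genes. By replicate number, the components' median log2 ratio was 0.22 between the libraries numbered 1 and -0.00 between those numbered 2 and between those numbered 3, and the targets' was 0.07, 0.08 and -0.02. The lean of the components thus lay in number 1, and without untreated replicate 1 their median was -0.03, with 7 of 18 higher. TEAD1 shows it most: its log2 ratio of 8 h to 0 h was 0.80 for number 1, and -0.04 and -0.15 for numbers 2 and 3. PTPN14, a phosphatase that binds YAP, read 0.75, 0.10 and -0.18, and CRIM1, a membrane protein that binds BMPs, read 0.72, 0.14 and 0.02. Without the 8 h library numbered 1 the targets' median log2 change turned to -0.05.

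At 24 h more targets were fitted lower than higher. Of 19 targets tested, 13 were fitted lower and 6 higher than at 0 h, with a median log2 change of -0.48, against 0.01 over all genes. The targets' median was -0.42, -0.27 and -0.48 between the libraries numbered 1, 2 and 3, and the fitted one was -0.31 without 24 h replicate 3. Of the components 12 of 18 were fitted higher, with a median of 0.15, but their median was 0.35, 0.06 and -0.05 by number. Without untreated replicate 1, and also without the 3 libraries numbered 1, 9 components were higher and 9 lower, with medians of 0.03 and 0.02. The test called 4 members (edgeR adjusted p under 0.05): TEAD2 and RBMS3 rose, and NT5E and AJUBA fell. Across all genes it called 649 (4.25%), 2.47% higher and 1.77% lower, beside 10.8% of the 37 members. The block fit called 19 of the 37 members (51.4%), 7 higher and 12 lower, against 24.1% of all genes (12.6% higher and 11.6% lower). Of those 19, 6 were components (4 higher, 2 lower; 33.3% of 18) and 13 were targets (3 higher, 10 lower; 68.4% of 19). Groups did not overlap for 5 components and 3 targets that were higher and for 2 components and 7 targets that were lower, where 15.9% of all genes were higher and 14.4% lower without overlap (30.3% in all). Without the 3 libraries numbered 1, 16 members passed in the fit without a block (beside 16.9% of all genes): the 4 above and WWTR1, VGLL4, MOB1B, NF2, AMOTL1, AXL, CCDC80, CCN1, CCN2, CRIM1, FJX1 and SLIT2. With the block 20 passed there (beside 25.8%), since MYOF and AMOTL2 were gained and F3 was lost. Without 24 h replicate 2 or without 24 h replicate 3, no member and no other gene passed in the fit without a block. In the block fit, 15 to 22 members passed with any 1 library left out, beside 2213 to 3816 of all genes (15489 to 15619 tested). Of the 19 members, 13 passed in each of those 9 fits and in the fit without the libraries numbered 1: WWTR1, TEAD2, VGLL4, NF2, AXL, CCDC80, CCN1, CRIM1, FJX1, AJUBA, RBMS3, NT5E and SLIT2. The share of all genes that passed in every one of those fits is not given here, so the 13 have no background beside them.

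**Figure D2:**
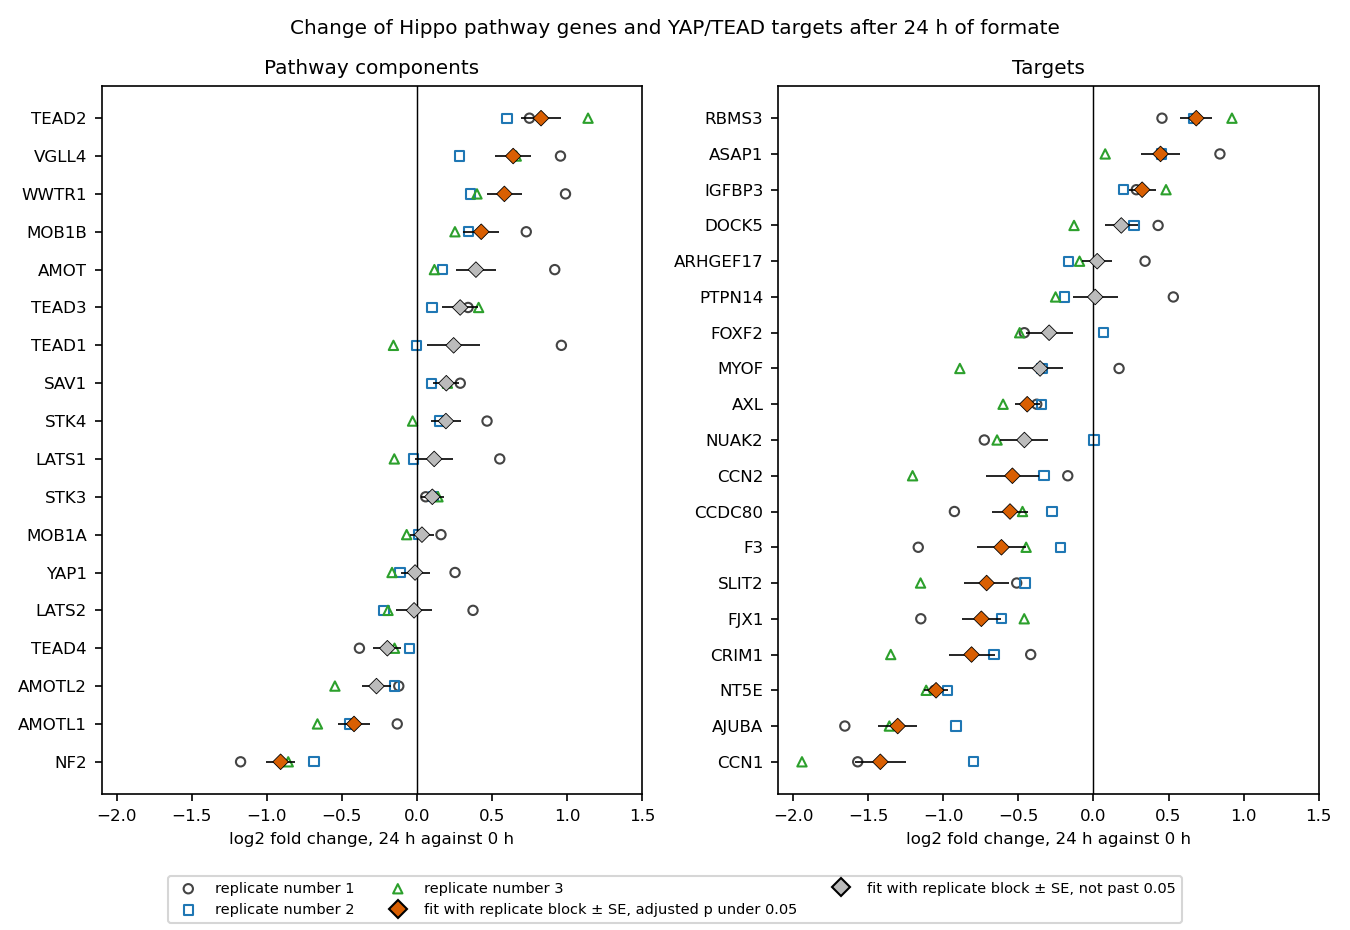
Log2 fold change at 24 h against 0 h of the 18 components (left) and 19 tested targets (right). Open circles, squares and triangles are the ratios between libraries numbered 1, 2 and 3, and diamonds with bars are the block fit ± SE, orange where the adjusted p was under 0.05. NF2 is the lowest component and TEAD2 the highest, and 13 of the 19 targets lie below 0.

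Of the co-activators, WWTR1 rose in the block fit and YAP1 did not pass. WWTR1 read 233, 409 and 388 CPM in untreated replicates 1 to 3, 271, 400.1 and 387 CPM at 8 h and 463, 523 and 512 CPM at 24 h. All 24 h libraries were above all others. The log2 change from 0 h was 0.58 ± 0.11 (SE) in the block fit, which called it (edgeR adjusted p = 0.00465), and 0.54 without the block, which did not (adjusted p = 0.134); without the libraries numbered 1 it was 0.38 and passed in both. YAP1 read 48.7, 61.2 and 56.6 CPM at 0 h, 58.3, 57.3 and 52.7 CPM at 8 h and 58.1, 56.6 and 50.5 CPM at 24 h. Its groups overlapped throughout, and its log2 change at 24 h was -0.01, with a 95% interval of -0.25 to 0.22 (edgeR adjusted p = 0.948), and -0.14 without the libraries numbered 1. The exons of both genes are overlapped by genes on the other strand (9.97% of YAP1 and 9.45% of WWTR1), whose reads cannot be told apart because the strand setting of the counting is not given in the sources used here. YAP1 also has the pseudogenes YAP1P1 and YAP1P2.

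Of the TEAD factors, which hold the DNA for the co-activators, TEAD2 rose. TEAD2 read 5.61, 7.66 and 6.42 CPM at 0 h, 5.63, 6.87 and 7.74 CPM at 8 h and 9.43, 11.6 and 14.1 CPM at 24 h, so that every 24 h library stood above the rest. The log2 change was 0.83 ± 0.19 (SE; edgeR adjusted p = 0.0355), and 0.83 in the block fit (adjusted p = 0.00142); 10.7% of its exons are overlapped on the other strand. Without the block the call was lost without untreated replicate 1 or 3, 8 h replicate 2 or 3, or 24 h replicate 2 or 3, where the log2 change stayed between 0.67 and 0.97. TEAD2 made up 5.57% ± 0.494 of the TEAD messenger RNA per kilobase at 0 h and 9.22% ± 2.44 at 24 h (SD, n = 3). TEAD1 read 133, 235 and 239.8 CPM at 0 h, 232, 229 and 216 CPM at 8 h and 259.8, 234 and 215 CPM at 24 h. Only untreated replicate 1 was low, and without the libraries numbered 1 the log2 change of 0.22 (edgeR adjusted p = 0.453) turned to -0.08. TEAD3 read 9.05, 10.8 and 10.1 CPM at 0 h, 8.76, 12.3 and 10.2 CPM at 8 h and 11.5, 11.6 and 13.5 CPM at 24 h. Its 24 h libraries did not overlap the untreated ones, but the change of 0.28 did not pass with or without the block (edgeR adjusted p = 0.106 and 0.247). TEAD4 read 41.3, 29.3 and 25.97 CPM at 0 h, 34.4, 29.1 and 26.5 CPM at 8 h and 31.6, 28.3 and 23.4 CPM at 24 h, with overlapping groups and a log2 change of -0.21 (edgeR adjusted p = 0.454), or -0.10 without the libraries numbered 1.

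VGLL4, which competes with YAP and TAZ for TEAD, read 97.5, 163 and 142 CPM at 0 h, 92.9, 155 and 142 CPM at 8 h and 189, 199 and 225 CPM at 24 h. Every 24 h library was above every earlier one. The block fit called the log2 change of 0.64 ± 0.12 (edgeR adjusted p = 0.00347), and the fit without the block did not (0.60, adjusted p = 0.106); 23.7% of its exons are overlapped on the other strand.

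The kinases at the core of the pathway did not pass at 24 h. LATS1 read 22.5, 32.8 and 32.2 CPM at 0 h, 33.1, 35.3 and 31.3 CPM at 8 h and 33.03, 32.3 and 29.02 CPM at 24 h. LATS2 read 16.03, 21.6 and 21.5 CPM, 21.3, 22.6 and 21.7 CPM and 20.8, 18.6 and 18.8 CPM in the same order. Both were lowest in untreated replicate 1. Apart from that library, LATS1 overlapped between 0 h and 24 h, while LATS2 was lower in all 24 h libraries than in the other untreated ones. Their log2 changes at 24 h were 0.11 for LATS1, with a 95% interval of -0.20 to 0.41, and -0.03 for LATS2, with one of -0.30 to 0.25 (edgeR adjusted p = 0.643 and 0.913). Without the libraries numbered 1 they were -0.08 and -0.20 and did not pass (edgeR adjusted p = 0.577 and 0.148). STK3 (MST2) ranged from 38.7 to 44.9 CPM over the 9 libraries, with a log2 change of 0.10 at 24 h. STK4 (MST1) ranged from 89.7 to 124.7 CPM, with one of 0.19, or 0.07 without the libraries numbered 1.

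Among the scaffolds and adaptors NF2 moved most. NF2, the tumour suppressor merlin, read 342, 186 and 167 CPM at 0 h, 287, 192 and 169 CPM at 8 h and 152, 116 and 92.3 CPM at 24 h. Within each group replicate 1 was highest, and the 24 h libraries were below all others. It fell by 0.91 ± 0.10 (SE) on the log2 scale in the block fit (edgeR adjusted p = 0.000187), the component with the smallest adjusted p, and the change without the block was -0.95 (adjusted p = 0.0756). MOB1B, a LATS partner, read 32.2, 54.9 and 53.3 CPM at 0 h, 47.7, 51.9 and 49.9 CPM at 8 h and 53.4, 69.7 and 63.5 CPM at 24 h. Its untreated replicate 1 was the lowest library and its groups overlapped. The block fit called its log2 change of 0.43 (edgeR adjusted p = 0.0247; 0.172 without the block), and that call was lost without any 1 of the 24 h libraries. MOB1A ranged from 157.8 to 188.1 CPM, with a log2 change of 0.03, and SAV1 from 27.3 to 36.2 CPM, with one of 0.19 that did not pass (edgeR adjusted p = 0.1196 with the block).

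Of the angiomotins, AMOTL1 fell in the block fit. AMOTL1 read 272, 272 and 269 CPM at 0 h, 365, 290.2 and 248 CPM at 8 h and 248, 199 and 170.1 CPM at 24 h. The untreated libraries were close together and all 24 h libraries were below them. Its log2 change in the block fit was -0.42 ± 0.11 (edgeR adjusted p = 0.0156; 0.1496 without the block), lost without untreated replicate 2 or 3 or 24 h replicate 2 or 3. AMOTL2 read 90.00, 78.5 and 73.5 CPM at 0 h, 105, 84.5 and 74.4 CPM at 8 h and 82.8, 70.8 and 50.4 CPM at 24 h. Its groups overlapped, and the change of -0.27 missed the threshold in the block fit (edgeR adjusted p = 0.0583), but passed there without untreated replicate 1 and without the libraries numbered 1 (-0.34, adjusted p = 0.0196). AMOT ranged from 33.8 to 64.8 CPM and was fitted higher by 0.39 with the block, which did not pass (edgeR adjusted p = 0.05505). Without the libraries numbered 1 that change was 0.15 (edgeR adjusted p = 0.167), and without untreated replicate 3 it passed.

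Of the targets, NT5E and AJUBA fell in both fits. NT5E encodes CD73, the surface enzyme that turns extracellular AMP into adenosine, and lies at chr6:85449584-85495791 on GRCh38 (GENCODE 29). It read 571, 434 and 448 CPM at 0 h, 600.5, 443 and 444 CPM at 8 h and 274, 221 and 207 CPM at 24 h. The 24 h libraries lay far below all others, and the ratio was nearly the same for each number (-1.06, -0.97 and -1.11 on the log2 scale). NT5E fell by 1.05 ± 0.16 (SE) on the log2 scale (edgeR adjusted p = 0.01701), and the block fit gave -1.05 (adjusted p = 3.91e-05). AJUBA, a LIM protein that also binds the LATS kinases (chr14:22971174-22982642), read 71.1, 45.3 and 43.3 CPM at 0 h, 72.1, 47.9 and 42.2 CPM at 8 h and 22.6, 24.03 and 16.9 CPM at 24 h. No 24 h library reached the lowest of the earlier ones. AJUBA fell by 1.33 ± 0.24 (edgeR adjusted p = 0.0215; 0.000123 in the block fit). Without the block both calls were lost without 24 h replicate 2 or 24 h replicate 3, where the log2 changes were -1.01 and -0.97 for NT5E and -1.43 and -1.19 for AJUBA.

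CCN1 and CCN2, matrix signals that are the usual readouts of YAP and TAZ, fell in the block fit and, without the libraries numbered 1, in both fits. CCN1 (CYR61; chr1:85580761-85583962) read 165, 72.3 and 78.1 CPM at 0 h, 154, 86.7 and 78.2 CPM at 8 h and 55.4, 41.5 and 20.4 CPM at 24 h. In each earlier group replicate 1 held the most, and all 24 h libraries were lower. Its log2 change was -1.42 ± 0.17 (SE) in the block fit, which called it (edgeR adjusted p = 0.000295), and -1.42 ± 0.40 without the block, which did not (adjusted p = 0.0629); the latter passed with no filter on low counts, without 24 h replicate 1 and without the libraries numbered 1 (-1.28, adjusted p = 0.00498). CCN2 (CTGF), whose window holds GGAATG 3 times, read 125, 104 and 104 CPM at 0 h, 118, 121 and 104 CPM at 8 h and 111, 82.8 and 44.9 CPM at 24 h. The 24 h libraries spread widely, and replicate 1 of that group lay within the untreated range. Its change of -0.54 ± 0.17 passed narrowly in the block fit (edgeR adjusted p = 0.0445; 0.229 without the block) and was lost without untreated replicate 2 or 3, without any 1 of the 8 h libraries, and without 24 h replicate 2 or 3 (log2 changes of -0.78 to -0.26). Without the block it passed without the libraries numbered 1 (-0.70, edgeR adjusted p = 0.0448); 8.34% of its exons are overlapped on the other strand. ANKRD1, the other common readout, with GGAATG at 2 places, was at the detection limit. It read 0.283, 0.154 and 0.398 CPM at 0 h, 0.0908, 0.175 and 0.3404 CPM at 8 h and 0.211, 0 and 0.0415 CPM at 24 h, where 3 counts in a library come to 0.116 to 0.141 CPM, so no change could be detected at this depth.

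CRIM1, FJX1, SLIT2, AXL, CCDC80 and F3 fell in the block fit and did not pass without the block over all 9 libraries. Of these, DESeq2, also without the block, called CRIM1, FJX1 and F3, and without the libraries numbered 1 all but F3 passed without the block. CRIM1 read 187, 176 and 187 CPM at 0 h, 307, 194 and 189.8 CPM at 8 h and 139.7, 111 and 73.2 CPM at 24 h. Its untreated libraries were close together and above every 24 h library. The log2 change was -0.81 ± 0.15 (edgeR adjusted p = 0.00371; 0.0745 without the block). FJX1, a secreted Golgi protein related to fly four-jointed, read 28.4, 15.7 and 17.7 CPM at 0 h, 22.02, 16.5 and 16.7 CPM at 8 h and 12.8, 10.3 and 12.9 CPM at 24 h. These groups too did not overlap, with a log2 change of -0.75 ± 0.13 (edgeR adjusted p = 0.00250; 0.0601 without). SLIT2, the secreted ligand of ROBO receptors, read 56.95, 39.9 and 57.1 CPM at 0 h, 90.6, 43.96 and 52.1 CPM at 8 h and 39.97, 29.1 and 25.7 CPM at 24 h. Replicate 1 at 24 h just exceeded untreated replicate 2, and the change was -0.71 ± 0.15 (edgeR adjusted p = 0.00693; 0.128 without).

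AXL, a receptor tyrosine kinase and the target with the highest level, read 1049, 849.6 and 824 CPM at 0 h, 1143, 901 and 801 CPM at 8 h and 808, 669.5 and 543 CPM at 24 h. The 24 h group lay below the untreated one, though its replicate 1 came within the range of the 8 h group. The log2 change from 0 h was -0.44 ± 0.08 (edgeR adjusted p = 0.00360; 0.155 without the block). CCDC80, a secreted matrix protein, read 95.05, 44.9 and 49.5 CPM at 0 h, 101, 49.7 and 50.2 CPM at 8 h and 50.03, 37.1 and 35.7 CPM at 24 h. Replicate 1 held the most in every group, and at 24 h it lay within the untreated range. Its change was -0.56 ± 0.12 (edgeR adjusted p = 0.00772; 0.233 without), and -0.37 without the libraries numbered 1. F3, the coagulation starter tissue factor, read 13.9, 8.09 and 9.56 CPM at 0 h, 12.5, 8.53 and 10.8 CPM at 8 h and 6.17, 6.95 and 7.01 CPM at 24 h. The groups did not overlap, but the change of -0.61 (edgeR adjusted p = 0.0213; 0.0929 without) was largest between the libraries numbered 1. Without those libraries it was -0.33 and did not pass, and the call was also lost without 24 h replicate 1.

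The targets that rose were RBMS3 in both fits and ASAP1 and IGFBP3 in the block fit. RBMS3, an RNA-binding protein (chr3:28574791-30010391), read 15.1, 18.4 and 15.4 CPM at 0 h, 15.8, 17.7 and 18.8 CPM at 8 h and 20.8, 29.3 and 29.1 CPM at 24 h. All 24 h libraries were above all others. It rose by 0.69 ± 0.15 on the log2 scale (edgeR adjusted p = 0.0315; 0.00139 in the block fit), and without the block the call was lost without untreated replicate 1 or 3, 8 h replicate 3, or 24 h replicate 2 or 3 (log2 changes of 0.61 to 0.84 over the 9). ASAP1, an Arf GTPase-activating protein, read 68.2, 93.9 and 101 CPM at 0 h, 99.2, 95.9 and 89.6 CPM at 8 h and 122, 128 and 107 CPM at 24 h. Its groups at 0 h and 24 h did not overlap, with untreated replicate 1 the lowest. The change was 0.45 ± 0.13 (edgeR adjusted p = 0.0281; 0.0851 without), lost without untreated replicate 2, 8 h replicate 3, or 24 h replicate 1 or 2. Without the libraries numbered 1 it was 0.27 in the block fit, which still called it (edgeR adjusted p = 0.0386), and over all fits with libraries left out it ran from 0.24 to 0.62. IGFBP3, which binds insulin-like growth factors, read 32.1, 33.2 and 34.9 CPM at 0 h, 29.4, 33.9 and 38.8 CPM at 8 h and 39.1, 38.2 and 48.7 CPM at 24 h. Its 24 h libraries were above the untreated ones, by a log2 change of 0.32 ± 0.09 (edgeR adjusted p = 0.0249; 0.138 without), lost without untreated replicate 2 or 3 or 24 h replicate 1 or 3.

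The other 6 tested targets did not pass at 24 h against 0 h in either fit over all 9 libraries. MYOF, the membrane repair protein myoferlin, read 348, 398 and 354 CPM at 0 h, 496, 432 and 336 CPM at 8 h and 392, 314 and 191 CPM at 24 h. Replicate 3 at 8 h and replicates 2 and 3 at 24 h were below the untreated range, and its log2 change was -0.36 in the block fit (edgeR adjusted p = 0.105). It passed in the block fit without untreated replicate 1, without 24 h replicate 1 and without the libraries numbered 1 (-0.61, edgeR adjusted p = 0.00216; without the block -0.57, adjusted p = 0.0685). NUAK2, an AMPK-related kinase with GGAATG at 2 places, read 8.96, 4.77 and 5.89 CPM at 0 h, 9.08, 5.55 and 6.34 CPM at 8 h and 5.41, 4.79 and 3.77 CPM at 24 h. Replicate 2 was level between 0 h and 24 h, and the change was -0.46 (edgeR adjusted p = 0.0571 with the block). The forkhead factor FOXF2 (3.98 to 5.89 CPM over the 9 libraries) was fitted at -0.31. PTPN14 (134.0 to 237 CPM) was fitted at 0.04, ARHGEF17 (54.7 to 76.7 CPM) at 0.01 and the Rac exchange factor DOCK5 (114.2 to 154.9 CPM) at 0.19, or 0.07 without the libraries numbered 1. In the block fit NUAK2 passed without 24 h replicate 2, PTPN14 without untreated replicate 1 and DOCK5 without untreated replicate 3. PTPN14 and ARHGEF17 were higher at 24 h in number 1 only, with log2 ratios of 0.53 and 0.34, and lower in the other numbers.

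**Figure D3:**
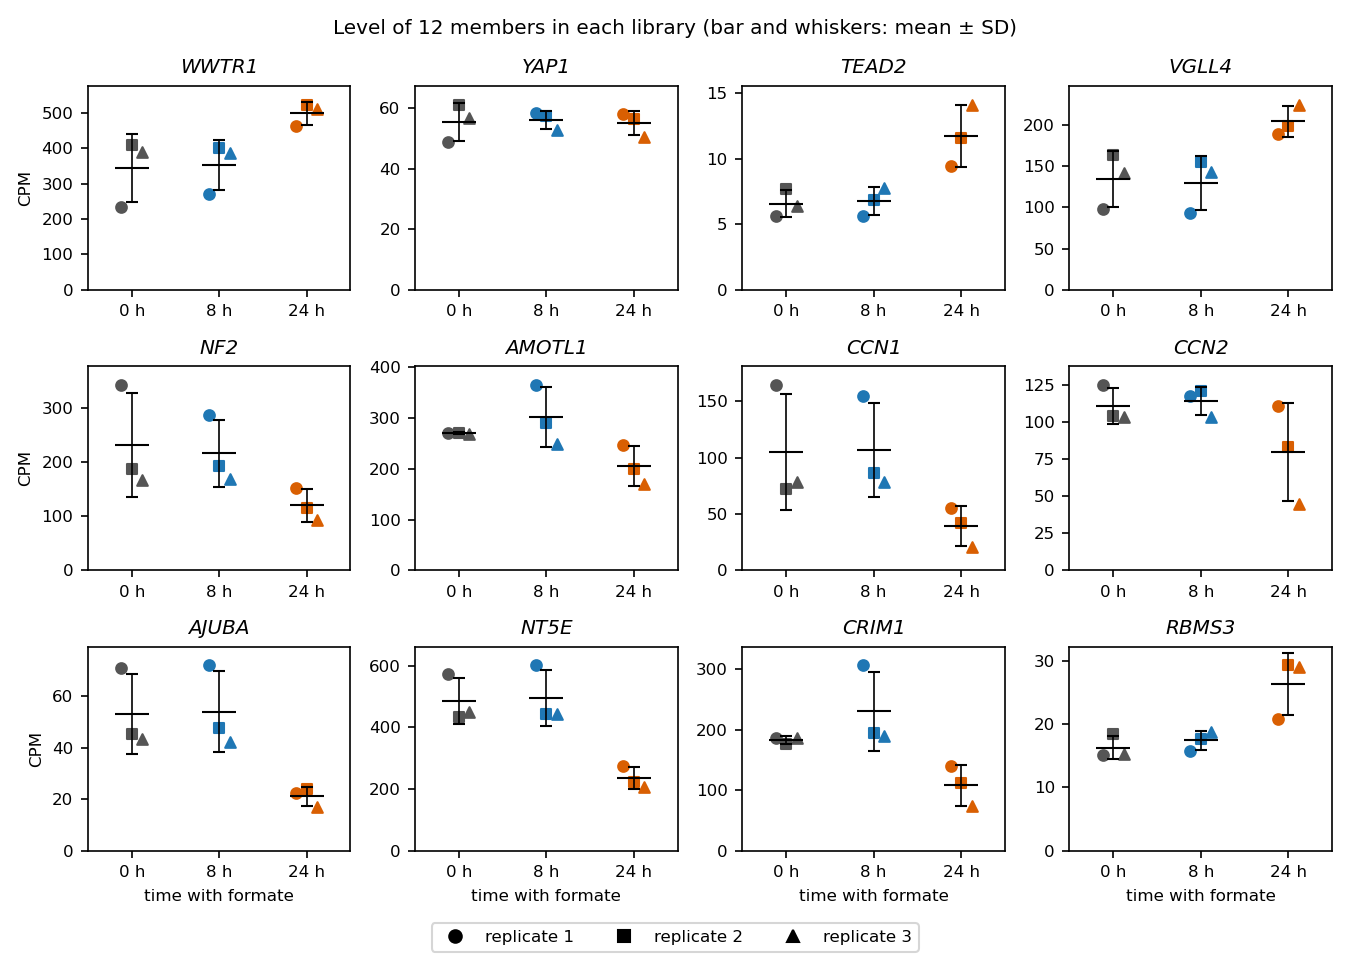
Level in CPM (linear axes from 0) of 12 of the 38 genes in each of the 9 libraries, at 0 h (grey), 8 h (blue) and 24 h (orange); circles, squares and triangles are replicates 1, 2 and 3, and bars with whiskers are mean ± SD. NT5E and AJUBA fall and TEAD2 and RBMS3 rise at 24 h with no overlap, YAP1 overlaps in all groups, and replicate 1 stands apart at 0 h and 8 h in NF2, CCN1 and WWTR1.

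Against 8 h, TEAD2 and RBMS3 were again higher at 24 h and NT5E and AJUBA lower, and the 24 h libraries are the ones already compared with 0 h. The test called 5 members, where 4.56% of all genes passed (2.84% higher and 1.72% lower). TEAD2 rose by 0.80 (edgeR adjusted p = 0.0402) and RBMS3 by 0.60 (adjusted p = 0.0467) on the log2 scale. Those that fell were CRIM1 with a log2 change of -1.09 ± 0.23 (edgeR adjusted p = 0.0288), AJUBA with -1.35 ± 0.24 (adjusted p = 0.0204) and NT5E with -1.08 ± 0.16 (adjusted p = 0.0171). Of the 19 targets 15 were fitted lower, with a median of -0.52, and of the 18 components 11 were higher, with a median of 0.05, against 0.02 for all genes. SLIT2 (-0.98, edgeR adjusted p = 0.05401) and CCN1 (-1.44, adjusted p = 0.0611) fell short of the threshold. Without 8 h replicate 1, 24 h replicate 2 or 24 h replicate 3 no member passed, and without untreated replicate 1 there were 16. The calls over all genes with 1 library left out also varied, and their range is given in the closing section.

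Other genes of the pathway were described from lists outside the 38. Of 36 other Hippo regulators tested, 2 passed at 24 h against 0 h (5.56%, beside 4.25% of all genes), both higher: DCHS1, an atypical cadherin (0.70, edgeR adjusted p = 0.0267), and LIMD1, a LIM protein that binds LATS (0.49, adjusted p = 0.0487). The next by p, RASSF1 (-0.71) and the kinase STK38L (0.47), passed in the block fit, which called 7 (5 higher, 2 lower; 19.4%, beside 24.1% of all genes); the list's median log2 change was -0.00, with 18 of 36 lower. Of 25 other YAP and TEAD targets tested, 4 passed (16%) and all fell, among them CAV1, the coat protein of caveolae (-0.58, edgeR adjusted p = 0.0277), THBS1, a thrombospondin (-1.63, adjusted p = 0.0359), and PMP22 (-0.53, adjusted p = 0.0419). That list's median was -0.13 (18 of 25 lower), and 12 passed in the block fit (48%), 3 higher and 9 lower.

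The targets' median level was lowest in the 24 h libraries. The same held for the other YAP and TEAD targets, the G2 and M phase genes and the actin and SRF genes. Centred on each gene's mean, the 19 targets had a median log2 level of 0.33, -0.05 and 0.08 in untreated replicates 1 to 3, 0.48, 0.02 and 0.08 at 8 h, and -0.09, -0.28 and -0.58 at 24 h. Genes of G2 and M phase stood at 0.42, 0.18 and 0.14 at 0 h and at 0.30, 0.18 and 0.12 at 8 h. At 24 h they stood at -0.13, -0.34 and -0.63. The order of libraries was that of the targets within the 24 h group but not within the 0 h group. All 12 G2 and M phase genes were fitted lower at 24 h against 0 h. The test called 7 of them (58.3%), where it called 1.77% of all genes lower. The list's median was -0.56, and the 4 with the smallest p were CCNB1 (-0.91), CDC20 (-0.90), PLK1 (-0.83) and AURKA (-0.80). Actin and SRF genes, which also answer to the cytoskeleton, stood at 0.43, -0.03 and -0.06 at 0 h. They stood at 0.22, 0.05 and -0.01 at 8 h and at -0.11, -0.15 and -0.18 at 24 h. From 0 h to 8 h in replicate 1 the targets' median rose, while those of the G2 and M phase genes and of the actin and SRF genes fell. The summed CPM rose there for the targets (3149 to 3732) and also for the G2 and M phase genes (5534 to 6221). It fell for the actin and SRF genes (16483 to 14309). These shifts rest on 1 pair of libraries. Of 15 actin and SRF genes tested, 11 were fitted lower and 4 higher, and TAGLN (-1.37) and FHL2 (-0.73) passed (13.3%). The list's median was -0.26, and TPM1 (-0.50) and VCL (0.26) came next by p without passing. The part of cell-cycle and actin genes in the targets' change was not tested, and in such bulk samples fewer cells that express a gene and less RNA per cell cannot be told apart.

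**Figure D4:**
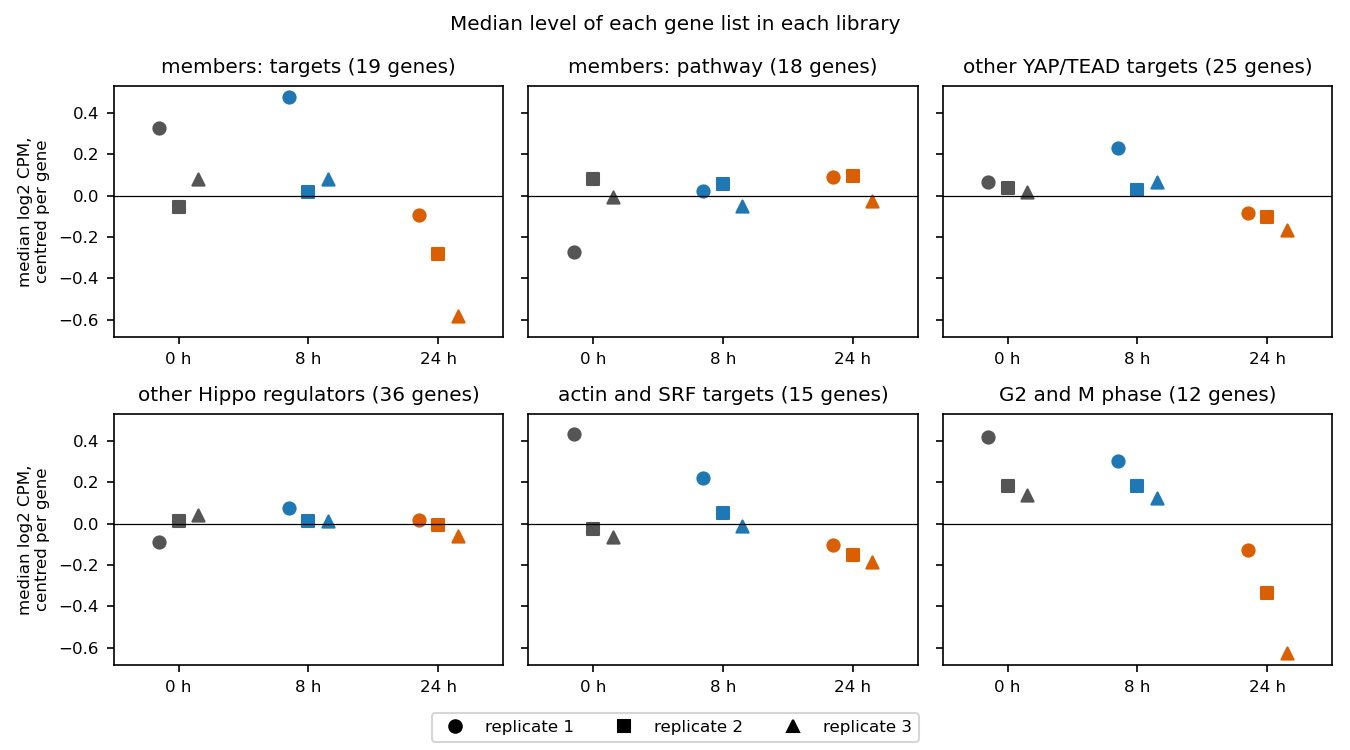
Median log2 CPM of 6 gene lists in each library, after each gene was centred on its mean over the 9 libraries; colours give the time with formate and symbols the replicate. The 24 h libraries are the lowest for the targets, for the other YAP and TEAD targets, for the actin and SRF genes and for the G2 and M phase genes, while the pathway components and other Hippo regulators stay near 0 apart from untreated replicate 1 of the components at -0.27.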

How the data were processed

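The authors deposited 1 table of raw counts per Ensembl gene for the 9 libraries; values are whole numbers, and no other scaling was found in them. RNA was taken from the dishes, RNA integrity above 9 was required and a stranded mRNA kit was used, per the labels' protocols. Reads were handled with bcl2fastq 2.20.0.422 and STAR 2.7.4a on GRCh38, per the submitters' processing notes; the counting program, the annotation release and the strand setting are not given in the sources used here. Symbols were found for 23619 of the 23727 genes, and 98.0% were in GENCODE 29, whose exon lengths and coordinates were used.

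The filterByExpr rule of edgeR dropped genes of low count and left 15273. Counts were scaled with TMM and fitted with edgeR 4.0.16 in R 4.3.3 (quasi-likelihood F test, two-sided, 1 mean per group over all 9 libraries), and p-values were adjusted over all genes tested by Benjamini-Hochberg with a threshold of 0.05. CPM values divide each count by the TMM-adjusted size of its library. The pairing check correlated the deviations of same-numbered libraries from their group means: r was 0.476, 0.432 and 0.414 for 0 h with 8 h and 0.367, 0.164 and 0.251 for 0 h with 24 h, so the block fit, with the replicate number as a term, is printed beside comparisons with 0 h. The labels do not say what the number stands for. The script was tested on simulated data. Alternatives were the block, DESeq2 1.42.0, RLE and upper quartile scaling, no filter, a mean of at least 1 CPM, only the 6 libraries compared, each library left out, and the 3 libraries numbered 1 left out.

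The members were taken by symbol and not by their values. Earlier results of these data were known when the members and the other lists were chosen, and no list was tested as a set. Every member is accounted for, with values in every library for those called in any comparison with or without the block and for the main co-activators, TEAD and LATS genes and readouts. Of each other list, at most 4 genes are named, by p at 24 h against 0 h. One gene that met this rule is not reported here. Overlap with genes on the other strand of at least 5% of a gene's exons is given above for YAP1, WWTR1, TEAD2, VGLL4 and CCN2. It also reached that share in SAV1 (14.9%), ARHGEF17 (9.75%) and PTPN14 (6.47%). Among named genes of the other lists it did so in VIM (24.4%), TPM1 (21.4%), GFAP (18.4%), RASSF1 (17.9%), PLK1 (12.5%) and TAGLN (11.4%). The same holds for VCL (11.1%), DCHS1 (9.36%), PMP22 (8.60%), LIMD1 (8.12%) and THBS1 (7.58%).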

Additional observations from a re-analysis of the deposited data

How the results depend on the processing

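For 24 h against 0 h, the 4 members and 649 genes called became 19 and 3687 with the replicate block and 8 and 1606 with DESeq2. They became 2 and 124 with only the 6 libraries compared, and 16 and 2616 without the 3 libraries numbered 1. Without a filter on low counts 7 members passed, and the count over all genes is not given for that setting. Leaving out 1 library gave 0 to 6 members and 0 to 899 genes. For 24 h against 8 h, the 5 members and 696 genes became 20 and 3130 with the block, 10 and 1458 with DESeq2, 13 and 1787 with only the 6 libraries compared, and 17 and 3072 without the libraries numbered 1, and leaving out 1 library gave 0 to 16 and 0 to 2545. In that comparison same-numbered libraries did not all deviate together (r of 0.423, 0.0367 and 0.404), so its block values are a hint from the data. The targets' median log2 change ran from -0.0507 to 0.168 at 8 h against 0 h, -0.588 to -0.314 at 24 h against 0 h and -0.668 to -0.370 at 24 h against 8 h with 1 library left out. For 8 h against 0 h no alternative called a gene.

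At 24 h against 0 h, 7 uncalled members changed sign. With 1 library left out, their log2 changes ran from -0.117 to 0.0617 for YAP1, -0.0233 to 0.355 for TEAD1, -0.0667 to 0.197 for LATS1, -0.171 to 0.0458 for LATS2, -0.0576 to 0.0764 for MOB1A, -0.147 to 0.0849 for ARHGEF17 and -0.137 to 0.166 for PTPN14. Without the libraries numbered 1 they were -0.0767 for TEAD1, -0.0842 for LATS1, -0.0257 for MOB1A, -0.128 for ARHGEF17 and -0.2201 for PTPN14, and upper quartile scaling gave 0.00165 for YAP1. No called member changed sign under any alternative, and the cause of these shifts was not tested. Depth limits ANKRD1, the only member left out by the filter on low counts, and its part in the other members was not tested.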
